A study of Mus musculus with 19 samples.

Results

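The IL-6 family was followed here as 9 genes: the ligands Il6, Osm, Lif, Clcf1 and Il11, and the receptors Il6st, Il6ra, Osmr and Lifr. They were chosen by symbol among 56941 genes measured by bulk RNA sequencing, and all 9 passed the filter on low counts that left 20501 genes for testing. The samples were cells rinsed from the airspaces of female mice aged 7 to 8 weeks, of wild type C57Bl/6J or of an ICAM-1 null line, which lacks an adhesion molecule of leukocyte traffic. There were 19 libraries, 1 per mouse: 4 from naive and 5 from exposed wild type mice, and 5 from naive and 5 from exposed ICAM-1 null mice. Exposed mice had aspirated 100 µL of Staphylococcus aureus particles carrying the acid-sensitive dye pHrodo, at 2.27 mg/mL, under isoflurane, and their lungs were lavaged 1 h later. The sources used here do not say whether naive mice received vehicle or isoflurane, nor which strain background the null line has, so an effect of ICAM-1 and of other line differences cannot be told apart.

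Cytokines of the IL-6 family are small secreted proteins that share the signal-transducing receptor gp130, encoded by Il6st. A ligand-specific partner receptor brings gp130 into a complex, and the associated JAK kinases then phosphorylate STAT3, whose target Socs3 feeds back on gp130. In the lung these cytokines are known for acute-phase signalling and for signals from leukocytes to epithelium and stroma.

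Depth was 32.8 to 80.3 M estimated counts, and the wild type naive group spanned that whole range. All 12 alveolar macrophage markers stood at a mean of 1 TPM or more in each group (TPM scales reads by transcript length and by depth). Their sums were 23611 to 27225 TPM in naive wild type and 27431 to 30762 TPM in naive null libraries, without overlap. After exposure they were 26774 to 32423 and 29217 to 34190 TPM, with overlap. By the edgeR tests described below, 4 of the 12 were higher and 1 lower in naive null mice, beside 4.31% and 2.55% of all genes. In exposed null mice 3 were higher and 2 lower, beside 4.43% and 4.04%. Marco stood at 478 TPM in naive wild type and 1844 TPM in naive null mice. The targeted gene followed its label: Icam1 stood at 74.6 ± 10.7 (SD, n = 4) and 899 ± 155 TPM (n = 5) in wild type naive and exposed libraries, and at 8.13 ± 2.63 and 10.8 ± 1.59 TPM (n = 5 each) in null libraries. Fewer cells of a type and less RNA per cell cannot be told apart in bulk samples.

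Promoter sequences were available for 7 of the 9 members, in 9 windows of 250 bases before RefSeq transcript starts (build GRCm38.p6). The windows of Il6 and Lif are shown because both ligands rose on exposure and held matches to motifs of inflammation-activated factors. Capitals mark the matches, and positions count back from the start site. The Il6 window (chr5:30012864-30013113, plus strand) held an AP-1 match at -249 to -243, a C/EBP match on the minus strand at -128 to -121 and an NF-kB match at -44 to -35. The Lif window (chr11:4257318-4257567, plus strand) held an AP-1 match at -228 to -222 and an NF-kB match, read on both strands, at -178 to -169.
Il6: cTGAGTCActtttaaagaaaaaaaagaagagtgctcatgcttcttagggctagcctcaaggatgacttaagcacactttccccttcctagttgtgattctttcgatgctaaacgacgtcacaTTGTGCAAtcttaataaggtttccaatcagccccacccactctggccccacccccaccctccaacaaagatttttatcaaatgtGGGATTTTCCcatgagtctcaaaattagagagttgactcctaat
Lif: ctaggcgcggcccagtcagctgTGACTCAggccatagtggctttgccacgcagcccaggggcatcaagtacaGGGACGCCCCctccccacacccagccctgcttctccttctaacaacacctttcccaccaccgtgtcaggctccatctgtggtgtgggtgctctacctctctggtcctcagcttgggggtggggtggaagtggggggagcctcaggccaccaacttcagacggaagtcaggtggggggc

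The motifs were searched on both strands, as TGANTCA (AP-1), TGACGTCA (CRE), TTGCNNAA (C/EBP), TTCNNNGAA (STAT), TATAAA and the NF-kB consensus. Of all 32841 windows in the table, 7.25% held the NF-kB motif, 6.75% AP-1, 9.57% C/EBP, 7.02% STAT, 1.55% CRE and 12.4% TATAAA. None of the listed motifs was found in the windows of Il6st, Il6ra, Osmr and Lifr or in the first of 2 windows of Il11, and the second Il11 window held an AP-1 match. A match is a run of letters and was not tested as a binding site.

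The ligands came first, and the question asked of each was how it responded to particles within 1 h and whether that response differed in mice without ICAM-1. Of the 5 ligands, 4 rose in both genotypes and Il11 did not pass the test, with medians of 4.02 in wild type and 2.63 in null mice on the log2 scale, beside 0.02 over all genes tested. In wild type mice 5 of the 9 members were higher after exposure (Il6, Osm, Lif, Clcf1 and Osmr), beside 20.1% of all genes tested, and 2 were lower (Il6st and Il6ra), beside 20.2%. In null mice 5 were higher (Il6, Osm, Lif, Clcf1 and Lifr), beside 21.4% of all genes, and the same 2 were lower, beside 23.4%. Calls are edgeR quasi-likelihood tests at a Benjamini-Hochberg adjusted p under 0.05 over all 20501 genes. Both responses are measured against naive mice of the same genotype.

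Il6 encodes interleukin-6, the founding ligand of the family and a driver of the acute-phase response (ENSMUSG00000025746.12, chromosome 5, 30218112 to 30224979, GRCm39). It was close to the limit of detection without exposure. The 4 wild type naive libraries held 0.284, 0.476, 0.942 and 0.387 TPM, and the 5 null naive libraries 0.352, 0.127, 0.206, 0.0811 and 0.791 TPM. These values rest on 12 to 37 and on 4 to 28 estimated counts per library, where 3 fragments would be about 12 counts. After exposure the wild type libraries held 42.7, 31.4, 45.8, 31.4 and 42.4 TPM. The null exposed libraries held 104, 107, 46, 59.6 and 73.9 TPM. Exposed and naive libraries were far apart in both genotypes, and the lowest null exposed library, at 46 TPM, lay just above the highest wild type exposed library, at 45.8 TPM. In wild type mice the rise was a log2 fold change of 6.47 (SE 0.38, edgeR adjusted p = 1.4e-11), and in null mice it was 8.49 (SE 0.37, edgeR adjusted p = 5.9e-14). Exposed null mice had 2.24 times the wild type level (log2 1.16, SE 0.24, edgeR adjusted p = 0.0032). That genotype call was lost on the log2(TPM + 0.1) scale, where limma gave 0.96 (adjusted p = 0.12).

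Osm encodes oncostatin M, a ligand made mainly by myeloid cells that signals through Osmr paired with gp130 (ENSMUSG00000058755.4, chromosome 11, 4186420 to 4191026). The wild type naive libraries held 16.2, 12.4, 18.7 and 15.6 TPM. The null naive libraries held 9.54, 8.76, 7.75, 7.94 and 12.7 TPM. The naive groups overlapped only through the highest null and the lowest wild type library. After exposure the wild type libraries held 151, 138, 231, 195 and 256 TPM, and the null libraries 37.8, 43.8, 34.2, 44 and 34 TPM. The lowest wild type exposed library stood at 138 TPM and the highest null exposed library at 44 TPM. Osm rose 16.2-fold in wild type (log2 4.02, SE 0.20, edgeR adjusted p = 9.5e-13) and 5.34-fold in null mice (log2 2.42, SE 0.17, adjusted p = 2.7e-10). Between exposed groups the null level was lower by a log2 fold change of -2.30 (SE 0.17, edgeR adjusted p = 4.3e-09).

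Lif encodes leukaemia inhibitory factor, which signals through Lifr paired with gp130 (ENSMUSG00000034394.15, chromosome 11, 4207557 to 4222514). It lies 16.5 kb from Osm on the same strand. The wild type naive libraries held 1.8, 1.91, 2.71 and 1.92 TPM and the null naive libraries 1.82, 1.7, 1.02, 0.959 and 1.3 TPM. After exposure the wild type libraries held 31.3, 36.6, 66.4, 61.1 and 69.4 TPM and the null libraries 13.8, 12.9, 8.81, 14.9 and 13.9 TPM. As with Osm, each exposed wild type library lay above each exposed null library, and wild type libraries 1 and 2 were the lowest of their group for both genes. Its log2 fold change on exposure was 5.0 in wild type mice (SE 0.28, edgeR adjusted p = 4.4e-12) and 3.67 in null mice (SE 0.24, edgeR adjusted p = 5.3e-11). The exposed null level was lower by a log2 fold change of -2.01 (SE 0.21, edgeR adjusted p = 1.2e-06).

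Clcf1 encodes cardiotrophin-like cytokine factor 1, a ligand of the ciliary neurotrophic factor receptor complex (ENSMUSG00000040663.10, chromosome 19, 4264292 to 4273544). Its wild type naive libraries held 24.7, 19.1, 17.1 and 17.7 TPM and its null naive libraries 16.2, 13.8, 9.24, 14 and 14.9 TPM, without overlap. After exposure the wild type libraries held 55.5, 52.3, 54.8, 65.8 and 51.9 TPM and the null libraries 75.7, 70.2, 55.2, 53.2 and 74 TPM, and these groups overlapped. On exposure it rose by 1.91 on the log2 scale in wild type mice (SE 0.15, edgeR adjusted p = 1.7e-09) and by 2.63 in null mice (SE 0.14, edgeR adjusted p = 2.2e-12). Neither genotype difference passed the test (naive -0.45, SE 0.14, edgeR adjusted p = 0.069, and exposed 0.28, SE 0.13, adjusted p = 0.25). The naive difference passed without null naive library 1 (-0.52, adjusted p = 0.039).

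Il11 encodes interleukin-11, a ligand best known from stromal cells (ENSMUSG00000004371.16, chromosome 7, 4775372 to 4785858). Its group means were 0.779 ± 0.226 (SD, n = 4) and 0.929 ± 0.316 TPM (n = 5) in wild type and null naive libraries, and 0.423 ± 0.263 and 1.00 ± 0.481 TPM (n = 5 each) after exposure. It had 8 to 122 estimated counts per library and the groups overlapped in both responses and both genotype comparisons. None of its 5 tests passed, the nearest being exposed null against exposed wild type (log2 1.21, SE 0.43, edgeR adjusted p = 0.093). Without wild type exposed library 5 that difference was 1.66 (adjusted p = 0.017).

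**Figure D1:**
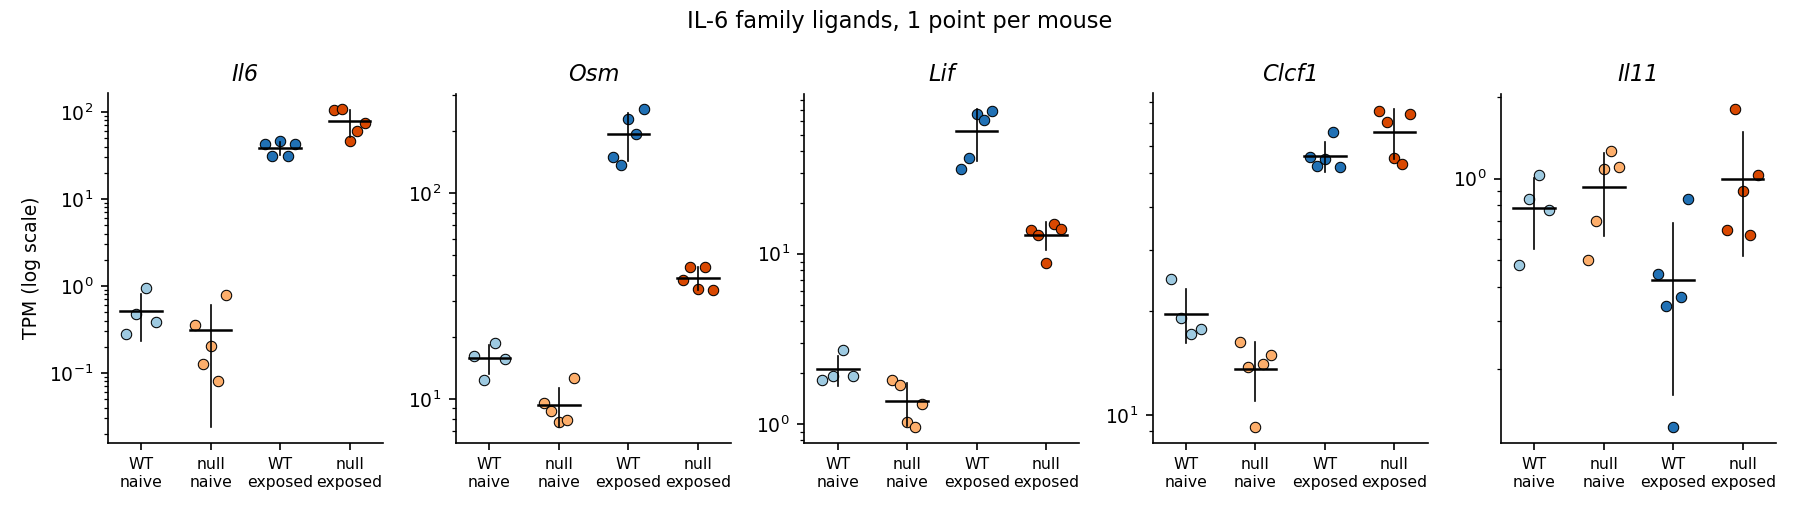
TPM of the 5 ligands on log axes, 1 point per mouse and 1 panel per gene, with horizontal lines at group means and vertical lines of ± 1 SD (n = 4 for wild type naive, 5 for the others). After exposure Osm and Lif are lower in every null library than in every wild type library, while Il6 spans 46 to 107 TPM in null and 31.4 to 45.8 TPM in wild type libraries.

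Setting the ligands side by side on the TPM scale, which accounts for transcript length, showed a different make-up of the ligand pool in the exposed genotypes. Before exposure Clcf1 and Osm together made up most of the summed ligand TPM in both genotypes, with medians of 51.7% and 40.1% in wild type and 55% and 34.9% in null libraries. The sum was 34.7 to 43.4 TPM in wild type naive and 19.3 to 30.8 TPM in null naive libraries. After exposure it was 259 to 420 TPM in wild type and 145 to 235 TPM in null libraries. Osm made up 53.4% to 60.9% of the pool in exposed wild type and 16.3% to 25.5% in exposed null libraries. Il6 made up 8.88% to 15.2% in exposed wild type and 31.7% to 45.4% in exposed null libraries. The share of Clcf1 was 12.3% to 20.2% against 29.8% to 38%, and that of Lif 11.1% to 17.3% against 5.47% to 8.63%. For none of these 4 ligands did the shares of the exposed genotypes overlap. Shares of a common sum depend on each other and were not tested.

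**Figure D2:**
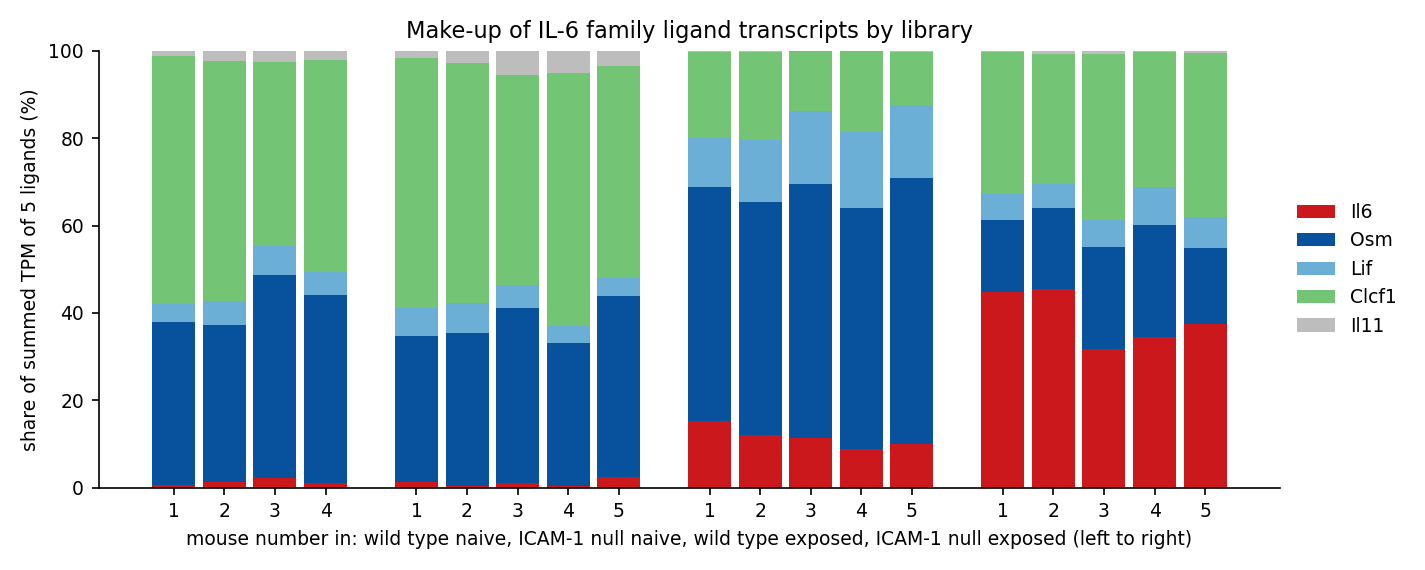
Share of each ligand in the summed TPM of the 5 ligands, 1 bar per library, in the order wild type naive, ICAM-1 null naive, wild type exposed and ICAM-1 null exposed. Osm fills 53.4% to 60.9% of the exposed wild type bars and 16.3% to 25.5% of the exposed null bars, and Il6 fills 31.7% to 45.4% of the latter.

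Ratios between ligands within a library restate the same values without the common sum, so they are not separate support. Il6 stood at 0.161 to 0.283 times Osm in exposed wild type and at 1.35 to 2.76 times Osm in exposed null libraries. Against Lif, Il6 stood at 0.514 to 1.37 times in exposed wild type and at 4 to 8.29 times in exposed null libraries. Osm over Lif was 6.51 to 8.97 and 5.16 to 9.77 in the naive wild type and null groups. It was 3.2 to 4.82 in exposed wild type and 2.44 to 3.88 in exposed null libraries, where the genotypes overlapped.

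**Figure D3:**
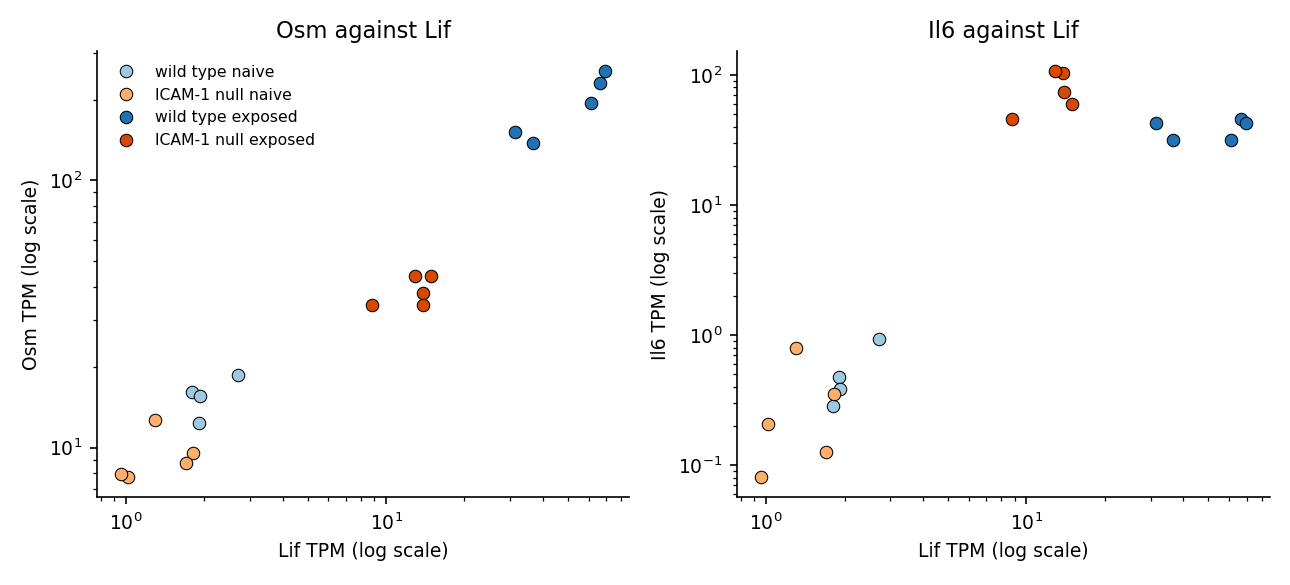
TPM of Osm (left) and Il6 (right) against TPM of Lif on log axes, 1 point per mouse, coloured by group. Exposed null libraries lie below exposed wild type libraries for both Osm and Lif, and above them for Il6.

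The interaction, which subtracts the wild type response from the null response, tested whether the genotypes responded differently. It was called for 1 of the 9 members, Osm, beside 0.332% of all genes tested in either direction (68 genes). The Osm response was smaller in null mice by a log2 fold change of -1.61 (SE 0.24, edgeR adjusted p = 0.0022), a call that was lost with only wild type naive library 4 kept in its group (-1.59, adjusted p = 0.18). For Lif the value was -1.33 (SE 0.33, edgeR adjusted p = 0.098), for Il6 2.02 (SE 0.55, adjusted p = 0.14) and for Clcf1 0.72 (SE 0.20, adjusted p = 0.14). These 3 did not pass with edgeR, though Lif did without wild type exposed library 1 (-1.46, adjusted p = 0.046). DESeq2 called all 4 ligands, with adjusted p of 4.7e-08 for Osm, 0.0044 for Lif, 0.042 for Il6 and 0.027 for Clcf1. In limma on log2(TPM + 1) the interaction passed for Osm (adjusted p = 0.0015) and Lif (-1.52, adjusted p = 0.018) and not for Il6 (adjusted p = 0.10) or Clcf1 (adjusted p = 0.12). For the 5 members not named here it did not pass with any of these tools.

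Genotype differences among the 9 members numbered 1 before and 4 after exposure with edgeR, and 4 in each state with DESeq2. Between naive groups no member was higher in null mice, beside 4.31% of all genes, and 1 was lower, Osm (log2 -0.69, SE 0.18, edgeR adjusted p = 0.018), beside 2.55%. At an unadjusted p under 0.05 edgeR also had no member higher in null mice, and DESeq2 and limma on log2(TPM + 1) called none higher. DESeq2 called 4 members lower, Lif (-0.68), Clcf1 (-0.46) and Il6st (-0.21) beside Osm. The Osm call was lost without wild type naive library 1 (-0.68, adjusted p = 0.051), wild type naive library 3 (-0.59, adjusted p = 0.091) or null naive library 4 (-0.64, adjusted p = 0.051). Between exposed groups 1 member was higher in null mice, Il6, beside 4.43% of all genes, and 3 were lower, Osm, Lif and Il6st, beside 4.04%. The other 5 did not pass with edgeR. Limma on log2(TPM + 1) called 1 member higher and 4 lower, with Osmr among the lower (-0.29, adjusted p = 0.029).

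Summed marker levels of some other cell types differed between the exposed genotypes, and they belong beside the Osm and Lif results. By edgeR 1 of 14 epithelial markers was higher and 3 lower in exposed null mice, beside 4.43% and 4.04% of all genes. For 8 tested erythroid and platelet markers the calls were 0 and 5. They were 0 and 0 for 8 tested T and NK cell and 7 dendritic cell markers, which is near those shares. With an unadjusted edgeR p under 0.05, 1 T and NK cell marker was higher and 4 were lower. The summed level of 14 epithelial markers was 1032 to 3027 TPM in exposed wild type and 682 to 912 TPM in exposed null libraries, against 473 to 641 TPM in naive libraries, with 13 of 14 at 1 TPM or more in both exposed groups. The 9 erythroid and platelet markers summed to 373 to 2403 TPM in exposed wild type and 135 to 355 TPM in exposed null libraries. Wild type exposed library 3 had the lowest epithelial and erythroid sums of its group, and stood at 231 TPM for Osm and 66.4 TPM for Lif, each the second highest of its group. Library 5 had the highest epithelial sum and the highest Osm and Lif, at 256 and 69.4 TPM. The 9 T and NK cell markers summed to 66.8 to 79.2 TPM in exposed wild type and 52.8 to 64.3 TPM in exposed null libraries, against 57.1 to 66.3 and 51.2 to 62.9 TPM in the naive groups. The 7 dendritic cell markers went from medians of 10.6 to 26.8 TPM in wild type and from 7.36 to 23.5 TPM in null mice, and the exposed genotypes overlapped (22.7 to 38.8 and 14.3 to 29.1 TPM). The sum of 10 neutrophil markers was higher in null mice, at 145 to 163 against 50.9 to 73.1 TPM before exposure and 112 to 175 against 68.6 to 105 TPM after it. Of these markers, 5 of 10 reached 1 TPM in each group, and the granule genes Elane and Mpo were at 0 in both naive groups. Csf3r (31.6 against 99 TPM in naive wild type and null mice) and S100a8 (11.9 against 29.7 TPM) carried most of the naive difference. In exposed mice 4 of 7 tested neutrophil markers were higher and 2 lower in null mice by edgeR, beside 4.43% and 4.04% of all genes. S100a9 stood at 8.25 TPM in exposed wild type and 2.89 TPM in exposed null mice. The part of these cells in the results on Il6, Osm and Lif was not tested.

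The receptors were described next, and here the levels were high for gp130 and Il6ra and near the detection limit for Osmr and Lifr. Il6st, which encodes gp130 (ENSMUSG00000021756.13, chromosome 13, 112600604 to 112646620), stood at 42.1, 42.1, 36.6 and 43.7 TPM in wild type naive libraries and at 36.3, 33.3, 32.1, 36.2 and 34.5 TPM in null naive libraries. After exposure the wild type libraries held 26.5, 31.2, 32.7, 28.3 and 23.8 TPM and the null libraries 22.2, 22.2, 22.7, 24.5 and 25.4 TPM. The highest level was in wild type naive, then null naive, wild type exposed and null exposed mice, with no overlap between the naive groups and overlap between the later neighbours. The fall was small on the count scale, at -0.18 (SE 0.07, edgeR adjusted p = 0.038) in wild type mice and -0.22 in null mice (SE 0.06, edgeR adjusted p = 0.0085). Exposed null mice were lower than exposed wild type mice by -0.23 (SE 0.06, edgeR adjusted p = 0.027). The wild type call was lost when wild type naive library 1, 2 or 4 or wild type exposed library 1, 4 or 5 was left out (adjusted p up to 0.12). The genotype call was lost without wild type exposed library 2 or 3 or null exposed library 1, 2 or 3 (adjusted p up to 0.076).

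Il6ra encodes the interleukin-6 receptor, which binds the cytokine and is also shed from the cell surface (ENSMUSG00000027947.12, chromosome 3, 89771366 to 89820503). Its naive libraries held 37.5, 31.1, 45.9 and 39 TPM in wild type and 38.4, 29.2, 34, 39.5 and 47.4 TPM in null mice. After exposure it stood at 12.5, 22.5, 20, 12.6 and 15.2 TPM in wild type and at 17.4, 19.6, 23.5, 17.7 and 13.8 TPM in null libraries. All exposed libraries lay below all naive libraries, and the genotypes overlapped in both states. Il6ra fell by 0.85 on the log2 scale (SE 0.17, edgeR adjusted p = 3.4e-04) in wild type mice and by 0.69 in null mice (SE 0.16, edgeR adjusted p = 0.0012). Between genotypes the values were 0.01 (SE 0.17) in naive and 0.17 (SE 0.16) in exposed mice, and the tests did not pass. The 2 receptor genes that fell encode the chains of the interleukin-6 receptor complex.

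Osmr and Lifr encode the partner receptors for oncostatin M and leukaemia inhibitory factor and lie 216 kb apart on chromosome 15 (ENSMUSG00000022146.13, 6843058 to 6904450, and ENSMUSG00000054263.13, 7120095 to 7226970). Both were below 1 TPM in every library. Osmr stood at 0.107, 0.0951, 0.188 and 0.247 TPM in wild type naive and at 0.29, 0.372, 0.372, 0.564 and 0.613 TPM in wild type exposed libraries, without overlap (log2 1.89, SE 0.61, edgeR adjusted p = 0.017). The call was lost without wild type naive library 2 (adjusted p = 0.052). In null mice it stood at 0.166, 0.23, 0.292, 0.131 and 0 TPM before and 0.205, 0.161, 0.145, 0.153 and 0.233 TPM after exposure, and the test did not pass (0.40, SE 0.55, edgeR adjusted p = 0.60). The library with a count of 0 allows up to 0.201 CPM. Wild type exposed libraries 4 and 5, with the highest epithelial sums (1644 and 3027 TPM), also held the most Osmr, and the part of epithelial cells in this rise was not tested. The difference between exposed genotypes was -1.36 (SE 0.55, edgeR adjusted p = 0.16), although those libraries did not overlap. With edgeR it passed without null naive library 5 (-1.36, adjusted p = 0.014), with counts divided by 4 (-1.34, adjusted p = 0.045) and in the compared groups alone (-1.36, adjusted p = 0.021). It also passed in limma on log2(TPM + 1) (-0.29, adjusted p = 0.029).

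Lifr means were 0.0991 ± 0.0474 TPM (SD, n = 4) in wild type naive, 0.138 ± 0.0099 in null naive, 0.159 ± 0.0485 in wild type exposed and 0.199 ± 0.0982 in null exposed libraries (n = 5 each). All 4 groups overlapped with their neighbours in this order. The rise in null mice passed (0.92, SE 0.35, edgeR adjusted p = 0.036), and the value in wild type mice did not (0.83, SE 0.38, adjusted p = 0.091) unless wild type naive library 4 was left out (1.21, adjusted p = 0.025). The null call was lost when any of 6 single libraries was left out, null naive 1, 2, 4 and 5 and null exposed 1 and 2 (adjusted p up to 0.15). On the log2(TPM + 1) scale the null value was 0.07 (limma adjusted p = 0.36).

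**Figure D4:**
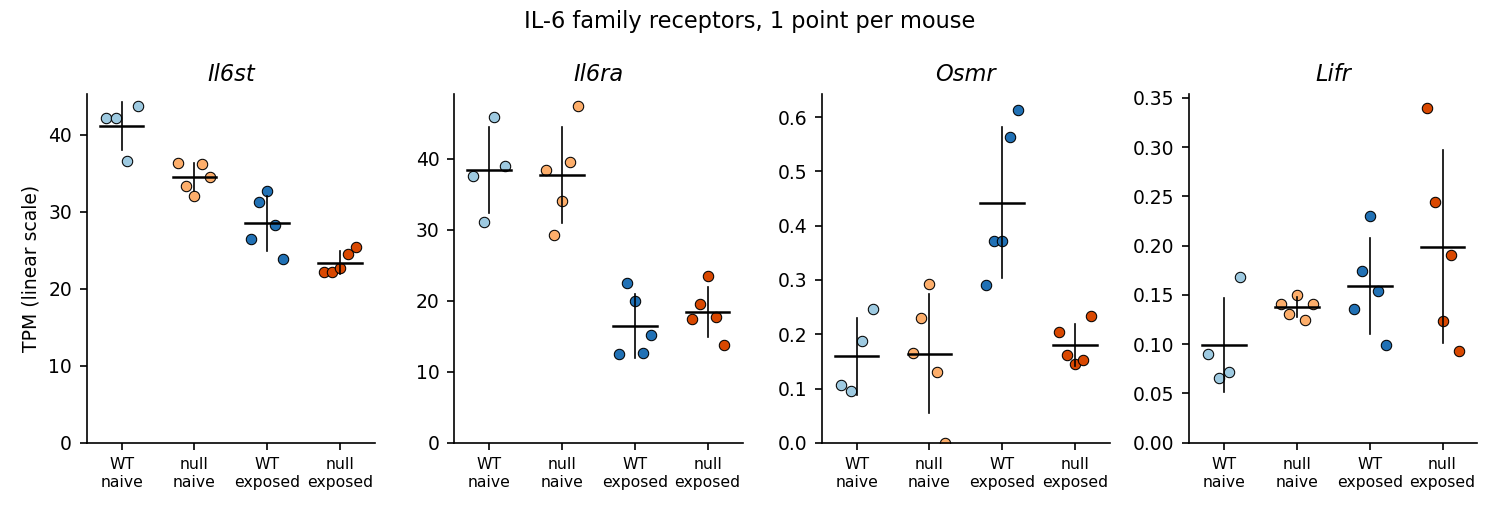
TPM of the 4 receptors on linear axes from 0, 1 point per mouse, with horizontal lines at group means and vertical lines of ± 1 SD (n = 4 for wild type naive, 5 for the others). Il6ra falls from 29.2 to 47.4 TPM in naive libraries to 12.5 to 23.5 TPM in exposed libraries of either genotype, while Osmr and Lifr stay below 1 TPM.

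The choice of scale mattered for small receptor changes. On the log2(TPM + 1) scale the median over all genes was -0.22 in the wild type response and -0.19 in the null response, against 0.02 in each with edgeR. The calls over all genes then split into 11% higher and 41% lower in wild type and 10.9% and 41% in null mice, where edgeR gave 20.1% and 20.2%, and 21.4% and 23.4%. On that scale Il6st changed by -0.52 and -0.54 and Il6ra by -1.19 and -1.0, so both receptors were lower on either scale and also below the shifted median.

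**Figure D5:**
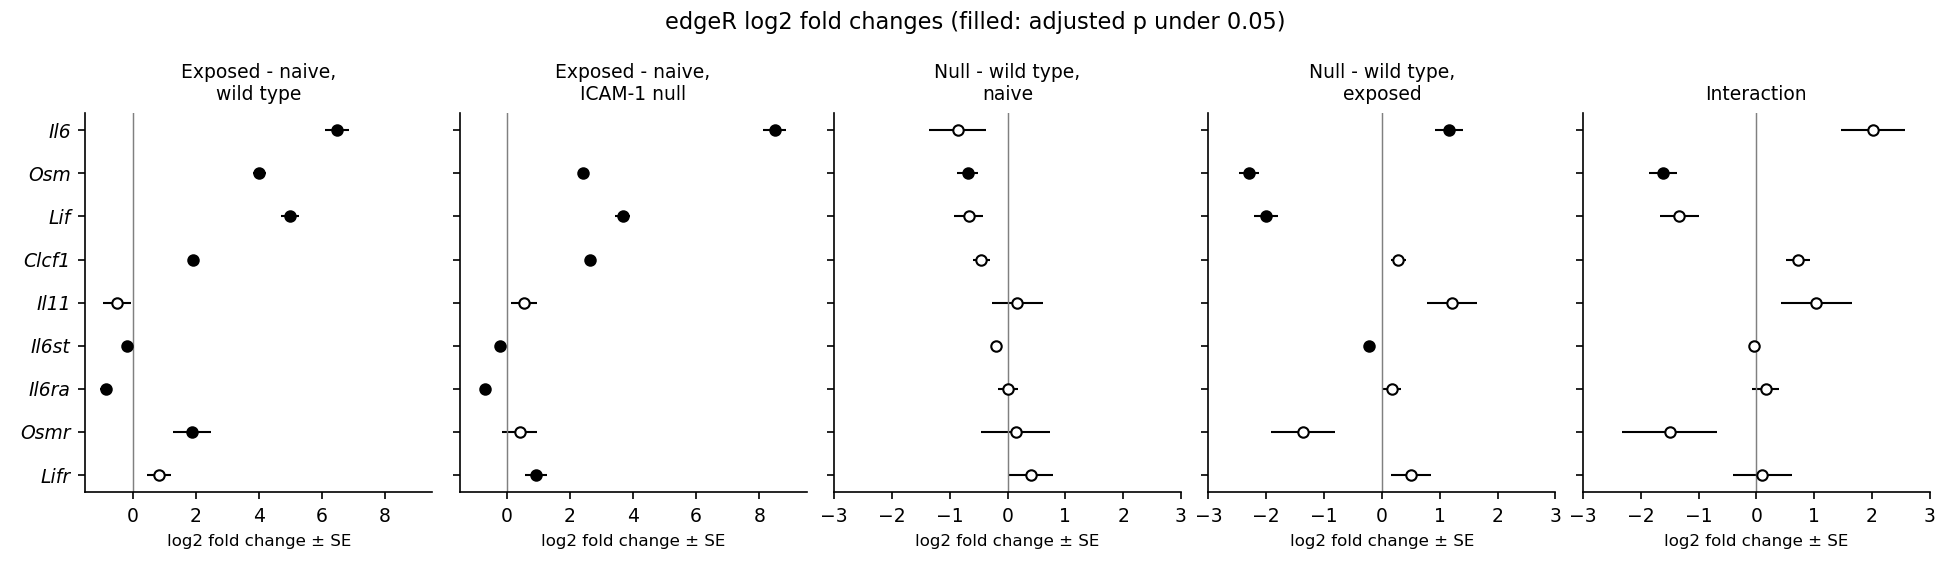
Log2 fold changes with standard errors from edgeR for the 9 members, 1 panel per comparison, filled where the adjusted p was under 0.05. The first 2 panels have a wider axis than the others. Il6 and Osm have filled points on opposite sides of 0 in exposed null against exposed wild type mice (1.16 and -2.30).

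Among further ligands and receptors of the family, Il11ra1 rose in both genotypes and Il27ra was lower in null mice in both states. Of 12 listed, 9 were tested. In each response 3 were higher (beside 20.1% and 21.4% of all genes) and 0 lower (beside 20.2% and 23.4%). The medians were 0.66 in wild type and 0.47 in null mice, beside 0.02 over all genes tested. On the log2(TPM + 1) scale limma called 1 higher in wild type mice and 0 in null mice, where DESeq2 called 4 and edgeR had 5 at an unadjusted p under 0.05. For the lower direction edgeR had 0 and 1 gene at an unadjusted p under 0.05, DESeq2 called 0 and 0, and limma on log2(TPM + 1) called 2 and 1. Il11ra1, the interleukin-11 receptor, was the most abundant, at 46.1 ± 1.44 (SD, n = 4) and 58.8 ± 2.78 TPM (n = 5) in naive and 53.6 ± 5.23 and 62.7 ± 7.08 TPM (n = 5 each) in exposed wild type and null mice. It rose by 0.50 (SE 0.09, edgeR adjusted p = 1.4e-04) and 0.35 (SE 0.08, adjusted p = 0.0020), and was higher in naive null than in naive wild type mice (0.40, SE 0.09, adjusted p = 0.0065). Its value in null mice was 0.09 on the log2(TPM + 1) scale, where it did not pass (limma adjusted p = 0.37). Il27ra, the interleukin-27 receptor, was lower in null mice both before (9.81 ± 0.851 against 5.28 ± 1.41 TPM, log2 -0.81, SE 0.19, edgeR adjusted p = 0.0081) and after exposure (6.20 ± 0.951 against 3.17 ± 0.904 TPM, log2 -0.96, SE 0.18, adjusted p = 0.0013).

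The subunits of interleukin-27, Il27 and Ebi3, rose in null mice (0.47, edgeR adjusted p = 0.011, and 0.87, adjusted p = 0.0081) and did not pass in wild type mice (-0.21 and 0.47). Neither rise passed on the log2(TPM + 1) scale (0.11 and 0.37), where Il27 was lower in exposed wild type mice (-0.50, limma adjusted p = 0.0020). Il11ra2 rose in wild type mice (0.79, SE 0.21, edgeR adjusted p = 0.0047), from 1.61 ± 0.287 to 2.14 ± 0.357 TPM, and did not pass on the log2(TPM + 1) scale (0.26, limma adjusted p = 0.11). Cntf, Ctf1 and Il31ra had low counts and did not pass in either response, and Ctf2, Il31 and Cntfr did not pass the filter.

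Genes that carry the signal from gp130 moved in both directions. Of 12, 7 rose and 3 fell in wild type mice and 7 rose and 4 fell in null mice, with medians of 0.29 and 0.31, beside 0.02 over all genes. Over all genes 20.1% rose and 20.2% fell in wild type and 21.4% and 23.4% in null mice, so the 3 of 12 that fell in wild type mice were near the background. On the log2(TPM + 1) scale the median was -0.09 in each genotype, with 4 and 3 genes called higher and 5 lower in each. Jak2, a kinase bound to gp130, went from 16 ± 1.14 to 58.9 ± 11.5 TPM in wild type (log2 2.27, SE 0.20) and from 16.9 ± 1.77 to 61.8 ± 19.1 TPM in null mice (2.22, SE 0.18). Stat5a, a transcription factor, rose by 0.95 (SE 0.18) and 1.19 (SE 0.16), and Jak1, another gp130 kinase, by 0.67 (SE 0.09) and 0.73 (SE 0.08). Tyk2, the remaining kinase of the pathway, fell by 0.35 (SE 0.07) and 0.48 (SE 0.06), and was lower in null mice before (-0.27, edgeR adjusted p = 0.013) and after exposure (-0.41, adjusted p = 1.7e-04). Stat3, the main transcription factor of the pathway, was higher by 0.25 and 0.30 with edgeR and stood at -0.16 and -0.11, not called, on the log2(TPM + 1) scale. None of the 12 genes was called in the interaction by edgeR, DESeq2 or limma, and 0 had an unadjusted p under 0.05 with edgeR. Over all genes edgeR called 0.332%, so no call among 12 is near the background and says little about this list.

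Brakes on the pathway included the largest rise among its 10 listed inhibitors, that of Socs3, which blocks gp130-bound JAK kinases. Socs3 went from 12.6 ± 0.589 (SD, n = 4) to 528 ± 78.8 TPM (n = 5) in wild type (log2 5.81, SE 0.18, edgeR adjusted p = 4.7e-16) and from 11.5 ± 2.29 to 533 ± 104 TPM (n = 5 each) in null mice (5.90, SE 0.16, adjusted p = 5.7e-17). Exposed levels ranged from 454 to 648 TPM in wild type and from 450 to 714 TPM in null libraries, so they overlapped. In all, 6 of the 10 rose and 2 fell in wild type mice, and 5 rose and 2 fell in null mice, with medians of 0.47 and 0.37. The share that fell was near the 20.2% and 23.4% of all genes, and the rises stand beside 20.1% and 21.4%. On the log2(TPM + 1) scale 4 were higher in each genotype and 4 and 5 lower. Cish, a feedback inhibitor of STAT5 signalling, rose by 1.61 (SE 0.14) and 1.63 (SE 0.13), and the phosphatase Ptpn2 by 1.22 (SE 0.10) and 1.21 (SE 0.09). Pias3, an inhibitor of STAT3, fell from 17.0 ± 1.12 to 4.19 ± 1.41 TPM and from 14.6 ± 1.39 to 3.76 ± 0.825 TPM.

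Between exposed genotypes 1 brake was higher in null mice, beside 4.43% of all genes. That was Socs1 (3.17 ± 0.419 against 5.53 ± 0.939 TPM, log2 0.83, SE 0.19, edgeR adjusted p = 0.0062). It encodes another inhibitor of JAK kinases. The 3 that were lower, beside 4.04% of all genes, were Cish (-0.42, adjusted p = 0.040) and the phosphatases Ptpn6 (-0.35, adjusted p = 0.017) and Ptprc (-0.28, adjusted p = 0.020), all by edgeR. Between naive genotypes edgeR called 0 of the 10 higher and 0 lower, beside 4.31% and 2.55% of all genes. Limma on log2(TPM + 1) called Cish lower there too (-0.46, adjusted p = 0.027). In the interaction edgeR, DESeq2 and limma called 0 of the 10, where edgeR called 0.332% of all genes.

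Known STAT3 target genes rose in both genotypes, 12 of 16 in wild type and 11 in null mice, beside 20.1% and 21.4% of all genes. In each genotype 2 were lower, beside 20.2% and 23.4% of all genes. The medians were 1.17 and 1.01. Limma on log2(TPM + 1) called 10 higher and 3 lower in each genotype, with medians of 0.80 and 0.61. Pim1, a survival kinase, went from 148 ± 20.3 to 833 ± 88.6 TPM in wild type and from 143 ± 27.8 to 853 ± 88.0 TPM in null mice. The AP-1 gene Junb rose by 4.08 (SE 0.12) and 4.22 (SE 0.11), and Bcl3, a nuclear IkB protein, by 3.04 (SE 0.21) and 3.49 (SE 0.19). Myc (-1.29 and -1.21) and Cebpd (-0.82 and -0.82), both transcription factors, fell. Several of these genes also respond to other signals, and no measurement here separates those. In exposed mice 1 of 16 was lower in null mice by edgeR, Icam1 itself, the deleted gene, beside 4.04% of all genes. By the same test 0 were higher, beside 4.43%, so these counts are near the background. DESeq2 and limma on log2(TPM + 1) each called 2 lower. With limma the other gene was Bcl2l1 (-0.48, adjusted p = 0.026).

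Among 6 genes of receptor shedding and trafficking, 3 rose and 0 fell in wild type and 4 rose and 0 fell in null mice. Over all genes 20.1% and 21.4% were higher and 20.2% and 23.4% lower. The medians of the 6 genes were 0.62 and 0.56. With limma on log2(TPM + 1) 3 and 2 were higher, with medians of 0.18 and 0.17. For falls edgeR had 0 at an unadjusted p under 0.05 and DESeq2 called 0 in each genotype, whereas limma on log2(TPM + 1) called 1 and 2. Adam17, a sheddase of the interleukin-6 receptor, went from 51.6 ± 1.93 to 97.2 ± 12.5 TPM and from 50.7 ± 6.83 to 93.7 ± 15.7 TPM. Its partner Rhbdf2, which brings it to the cell surface, rose by 2.04 (SE 0.11) and 2.21 (SE 0.10). Shedding itself was not measured.

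Of the factors known to act on the Il6 gene or its transcript, 13 of 16 rose in wild type and 12 in null mice, beside 20.1% and 21.4% of all genes. In each genotype 2 were lower, beside 20.2% and 23.4% of all genes. The medians were 1.00 and 0.87. By limma on log2(TPM + 1) 9 and 8 were higher and 2 and 3 lower, with medians of 0.62 and 0.49. Nfkbiz, an atypical IkB protein needed for Il6 transcription, rose by 7.08 (SE 0.21) and 7.22 (SE 0.19). The NF-kB subunits Rel and Nfkb1 rose by 3.56 (SE 0.14) and 2.32 (SE 0.10) in wild type and by 3.44 (SE 0.12) and 2.53 (SE 0.09) in null mice, and Atf3, a repressor of Il6, by 4.14 (SE 0.16) and 3.85 (SE 0.14). Zc3h12a, which encodes the RNase Regnase-1 that degrades the Il6 transcript, went from 33.6 ± 2.15 to 257 ± 63.2 TPM and from 33.7 ± 3.99 to 302 ± 44.1 TPM. Between exposed genotypes 2 were higher in null mice, Zfp36 and the NF-kB subunit Rela, beside 4.43% of all genes. Zfp36 encodes the RNA-binding protein tristetraprolin, which promotes decay of cytokine transcripts. It stood at 351 ± 47.5 TPM in exposed wild type and 527 ± 165 TPM in exposed null mice (log2 0.62, SE 0.16, edgeR adjusted p = 0.014). For Rela the value was 0.24 (SE 0.07, edgeR adjusted p = 0.050 after rounding). On the log2(TPM + 1) scale it was 0.20 (limma adjusted p = 0.14). None was lower by edgeR, DESeq2 or limma, near the 4.04% of all genes that edgeR called lower. With edgeR 0 of these factors had an unadjusted p under 0.05 in that direction.

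The patterns of the members across the 19 libraries were set against those of 12090 genes with a group mean of at least 1 TPM, by the root mean square (RMS) difference of log2(TPM + 1) values centred on each gene's mean. The nearest gene to Osm was Lif, and the nearest to Lif was Osm (0.39), against RMS values of 1.65 and 1.83 for the patterns of Osm and Lif themselves. Next for Osm were Id3 (0.53) and Slc2a6 (0.61), and for Lif the chemokine gene Ccl7 (0.46) and Stx11 (0.63). Ccl7 stood at 33.1 TPM in exposed wild type and 10.5 TPM in exposed null mice. Il6 had Ptgs2 (0.36), which encodes cyclooxygenase-2, Tnfsf9 (0.37) and Nfkbid (0.43) as nearest genes, and Clcf1 had Rnf149 (0.19), Orai2 (0.21) and Dusp5 (0.21). Il6st was nearest to Zfp592 (0.09), Ascc2 (0.09) and Stat5b (0.10), and Il6ra to D2hgdh (0.13), Lpin1 (0.15) and Rxrb (0.16). For Il11, Ncoa1 and Dxo were among the nearest genes, each at 0.23 against an RMS of 0.30 for Il11, so hardly closer than a flat line. Osmr and Lifr did not reach 1 TPM in any group mean and were left out. The libraries share exposure and genotype, so likeness in pattern is a description of these 4 groups.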

How the data were processed

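Per the labels' protocols, poly(A)-selected RNA was read as pairs of 150 bases to a planned 20 M reads. STAR, StringTie (version 2) and the build GRCm39 are named by the submitters' processing notes. The authors deposited estimated counts, as whole numbers not scaled for depth, and TPM, scaled by the authors within each library. Counting options, strand included, were not given in the sources used here. Overlapping genes may thus share reads. Low counts peaked at 1 and 4, and 1 fragment was assumed to be worth about 4 counts. Depth was 32.8 to 80.3 M estimated counts per library. Bounds from counts cover counting error only.

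Groups came from genotype and treatment labels. The counts of all 19 libraries were fitted in 1 edgeR 4.0.16 model (R 4.3.3) with TMM scaling and the filterByExpr defaults (minimum count 10, total 15), and 5 contrasts were tested two-sided by quasi-likelihood F tests with Benjamini-Hochberg adjustment over 20501 genes. SE is the standard error of a log2 fold change and ± an SD of TPM. DESeq2 1.42.0 and limma 3.58.1 on log2(TPM + 1) and log2(TPM + 0.1) were alternatives, beside RLE scaling, no filter, counts divided by 4, fits of the compared groups only and leaving out each library. The method was tested on simulated data of 19829 genes. In either response it recovered 46.9% of 98 genes changed by a log2 of 1 and 79.6% of 93 changed by 2. It called 5 unchanged genes. A value that was not called is thus no sign of no change. Far fewer genes were changed in the simulation than were called in the data. No 2 libraries of a group held identical counts (36 pairs), and each is 1 replicate. The labels number the mice, and p-values set group differences against the spread between these samples, pooled over the groups of the model.

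The members, 8 lists of pathway genes and 10 lists of markers were chosen with earlier results of these data known. Named genes are all members, the tested further family genes, up to 4 genes per pathway list with the smallest adjusted p or a role as receptor or brake, and the 3 nearest in pattern to each member. Stat3, Myc and Cebpd were added after their values were seen. Of the genes this rule gives, 2 are not reported here. Sequences are from RefSeq (GRCm38.p6), and gene coordinates are those of the deposited tables (GRCm39).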

Additional observations from a re-analysis of the deposited data

Results flagged for a closer look

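Of 36 groups of values (9 members in 4 groups), 2 held a library far from the others, where chance alone would give about 1 in 20. Lif in wild type naive mice was highest in library 3, at 2.71 TPM, with the next library at 1.92 TPM. Clcf1 in wild type exposed mice was highest in library 4, at 65.8 TPM, with the next at 55.5 TPM. Wild type naive library 3 was also the highest of its group for Osm (18.7 TPM), Il6 (0.942 TPM) and Il11 (1.03 TPM). Among wild type exposed libraries Osm and Lif were highest in number 5, at 256 and 69.4 TPM. The responses of the genotypes differed for Osm by the test of the interaction, at -1.61 (SE 0.24, edgeR adjusted p = 0.0022).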

How the results depend on the processing

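Under alternatives other than leaving out a library, 353 of 396 member values kept direction and side of the threshold, 14 lost a call, 16 gained one and 13 changed sign. With single libraries left out, 818 of 855 kept both, 21 lost a call, 5 gained one and 11 changed sign. The rises of Il6, Osm, Lif and Clcf1 and the fall of Il6ra kept their calls in both genotypes throughout.

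Members called between naive genotypes numbered 1 in the reported fit, 4 with DESeq2, 2 with limma on log2(TPM + 1) and on log2(TPM + 0.1), 2 in the compared groups alone, and 0 to 2 with a library left out. Members called in the interaction numbered 1, against 4 with DESeq2, 2 with limma on log2(TPM + 1) and 1 to 2 with a library left out. Over all genes the interaction had 68 calls, against 240 with DESeq2, 38 without a filter, 110 with limma on log2(TPM + 1) and 34 to 82 with a library left out. With the deepest wild type naive library, number 4, as the only one of its group, its spread is assumed to be that of the other groups. That fit gave 4253 calls in the wild type response, 321 between naive genotypes (0 members) and 10 in the interaction (0 members, Osm -1.59, adjusted p = 0.18).

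Same-numbered libraries had correlations of -0.05 to 0.07, and 0 pairs were over 0.1, so the samples were not treated as paired. With 4 or 5 pairs per comparison this cannot show that the labels' mouse numbers carry nothing shared. With the replicate block 2 members were called between naive genotypes (Clcf1 joined, -0.49, adjusted p = 0.010) and 2 in the interaction (Clcf1 0.75, adjusted p = 0.048), while Il6st in wild type (-0.18, adjusted p = 0.062) and Lifr in null mice (0.84, adjusted p = 0.082) did not pass, and 52 genes were called in the interaction.

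Sign changed only for values that were not called. Between naive genotypes Il6ra went from 0.01 to -0.00 with RLE scaling, DESeq2 and the compared groups alone, to -0.03 with both limma fits, to -0.01 with the single naive library, and over -0.07 to 0.13 with a library left out. Osmr went to -0.07 with limma on log2(TPM + 0.1), to -0.24 with the single naive library and over -0.24 to 0.45 with a library left out, and Lifr from 0.40 (SE 0.38) to -0.31 with the single naive library. In the interaction Il6st went to 0.06 with the single naive library and over -0.08 to 0.01 with a library left out, and Lifr to -0.00 and -0.12 with the limma fits, to -0.08 with the replicate block and over -0.30 to 0.27 with a library left out. The cause was not tested. Depth limits naive Il6, and Il11, Osmr and Lifr in all groups.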

Other observations

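The surroundings of Osm and Lif were examined after the values of both genes were seen. Within 500 kb of the pair 38 genes were listed and 26 tested, Osm and Lif left out. Between exposed genotypes 4 of the 26 passed the edgeR test, each lower in null mice (beside 4.04% of all genes): Sec14l2 (log2 -1.11, adjusted p = 8.9e-06), Rnf215 (-0.53), Mtmr3 (-0.50) and Ascc2 (-0.19). Between naive genotypes Dusp18 was higher (0.85, adjusted p = 1.4e-04, 1 of 26 beside 4.31% of all genes), and Sec14l2 (-1.38), Rnf215 (-0.35), Pes1 (-0.31) and Ascc2 (-0.22) were lower (4 of 26 beside 2.55%). In the interaction 0 of the 26 were called, beside 0.332% of all genes. Their values ran from -1.36 (Cabp7, SE 1.34) to 1.97 (Gm11957, SE 0.86). Cabp7 stood at 0.108 and 0.052 TPM and Gm11957 at 0.63 and 1.36 TPM in exposed wild type and null mice. The values were -1.61 (SE 0.24) for Osm and -1.33 (SE 0.33) for Lif, which lies within that range. Between exposed genotypes the median of the 26 was -0.14, against -2.30 for Osm and -2.01 for Lif. The lowest was -1.51, for Gm57361 (SE 0.71, edgeR adjusted p = 0.23).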
